A study of Homo sapiens with 6 samples.

Results

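HEL is a human erythroleukemia cell line, established from the blood of a patient with leukemia and able to express erythroid and megakaryocytic genes. The 44 genes described here act at mitotic entry, at the kinetochore, in the spindle checkpoint or on the spindle. They were chosen by name, with cytokinesis genes and kinesins other than the kinetochore motor CENPE left out. All 44 had an entry in the deposited table, which lists 31999 genes. Poly(A) RNA was sequenced from 6 libraries. 3 of them, the shCtrl group, came from HEL cells carrying a non-targeting small hairpin RNA, and the other 3, the shTMIGD2 group, from HEL cells with hairpin knockdown of TMIGD2, an immune receptor of the CD28 family. The labels give the libraries of each group as biological replicates. Both kinds of cells were transduced with a pLKO.1 lentivirus and selected with puromycin, and both grew in RPMI medium with serum and antibiotics. The labels do not say which of the study's TMIGD2 hairpins the shTMIGD2 libraries carried, or whether they shared one.

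The table gives each gene a single level, the authors' mean log2 CPM (read counts scaled to a common library total) over all 6 libraries. Its other columns hold the authors' own comparison of the groups and were not used. Each value below therefore averages control and knockdown cells, has no spread between libraries, and says nothing of a difference between shTMIGD2 and shCtrl. The depth of the libraries is not given in the table. TMIGD2 itself had a mean of 16.9 CPM, which pools both groups and so does not check the knockdown. Among erythroid and megakaryocytic marker genes, GATA1, the factor that directs both lineages, was at 250.8 CPM, and TFRC, the transferrin receptor, was at 2175 CPM. Of 7 markers of T cells, B cells, hepatocytes, fibroblasts and epithelia, CD3E, MS4A1 and KRT5 had no entry and the other 4 lay between 0.0737 CPM (ALB) and 0.574 CPM (COL1A1).

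Mitosis begins when CDK1, bound to cyclin A or cyclin B, is activated by CDC25 phosphatases and helped by the kinases PLK1 and Aurora A. Chromosomes then attach to microtubules through the kinetochore, a layered structure built on centromeric nucleosomes that carry the histone variant CENP-A. Unattached kinetochores load BUB and MAD proteins that hold back CDC20, the activator of the anaphase-promoting complex, until every chromosome is attached, after which securin and cyclin B are destroyed and separase cuts cohesin. Most of these transcripts rise in G2 and fall after division, so their level in a culture follows both the share of cells near mitosis and the RNA per cell. In bulk RNA these cannot be told apart.

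The 44 genes were well expressed in HEL cells. To compare genes, each mean CPM was divided by the length in kilobases of the longest protein-coding transcript of the gene in GENCODE 44 (GRCh38). On this scale of CPM per kilobase the median of the 44 genes was 28.0, and the middle of the distribution ran from 17.6 to 38.0 (quartiles). The same quantity over 11493 protein-coding genes with a mean of at least 1 CPM had a median of 8.96 and quartiles of 2.86 and 23.8. Of the mitotic genes, 39 lay above that median and 28 above the upper quartile. The median mitotic gene stood at percentile 78.7 of those coding genes, with a range from 17.3 to 97.5. In read share the 44 genes took 0.597% of all counts while making up 0.138% of the genes listed, and 42 of them had at least 10 CPM, against 28.7% of all genes listed. The median of the 44 was 86.9 CPM, and the median of their positions among all genes listed was percentile 91.4. These are descriptions of 1 mean per gene, and no test was made.

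**Figure D1:**
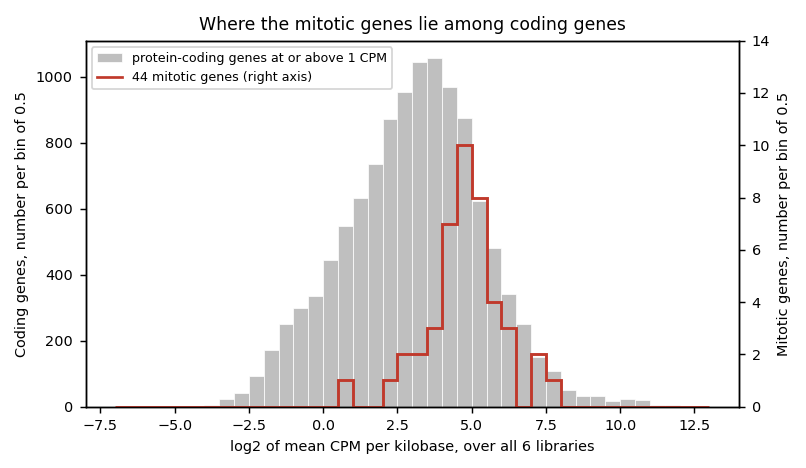
Histogram of log2 mean CPM per kilobase for 11493 protein-coding genes at or above 1 CPM (grey, left axis) and for the 44 mitotic genes (red line, right axis), in bins of equal width. The mitotic genes gather to the right of the peak of the coding genes, with a median of 28.0 against 8.96 CPM per kilobase.

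The kinases and cyclins of mitotic entry ran from 4.58 to 68.8 CPM per kilobase, with a median of 31.5 over 13 genes. CCNB1 (cyclin B1) was the highest of them at 68.8 CPM per kilobase, from a mean of 139.6 CPM. CDK1, its catalytic partner, stood at 64.0 CPM per kilobase from 124.7 CPM, CCNA2 (cyclin A2) at 54.2 from 149 CPM, and CCNB2 (cyclin B2) at 41.2 from 103 CPM. The kinase and its 3 cyclins thus lay within 1.67-fold of each other per kilobase. PLK1, the kinase that works from entry to cytokinesis, had 57.8 CPM per kilobase. Its relative PLK4, which controls centriole duplication, had 10.5, a ratio of 5.50 that became 13.7 with the median transcript length. For PLK1 that length is shorter than the coding sequence, giving 175.5 against 69.0 CPM per kilobase.

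Further down in this group were AURKA (Aurora A, 35.1 CPM per kilobase), PBK (a mitotic kinase, 31.5), and FOXM1 (24.3), the transcription factor that drives many of the others. NEK2, a centrosomal kinase, stood at 16.7 and MELK at 15.1 CPM per kilobase. The phosphatases that switch CDK1 on were far apart. CDC25B had 19.9 CPM per kilobase from 62.15 CPM, while CDC25C had 4.58 from 9.58 CPM, a ratio of 4.35 per kilobase. The ratio was 2.81 with the median transcript length, which for CDC25C is also shorter than the coding sequence. CDC25C was the lowest of all 44 genes in CPM. CDC25A, the third of this family and no member of the group of 44, was at 44.8 CPM per kilobase, above both.

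**Figure D2:**
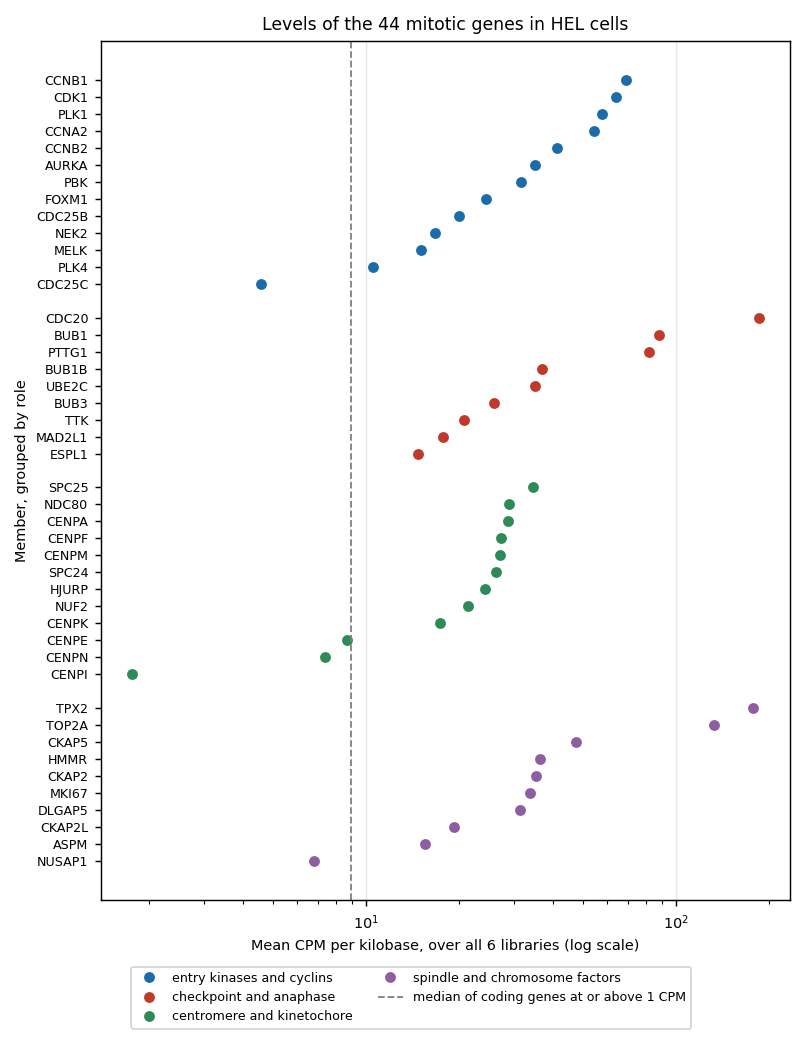
Mean CPM per kilobase over all 6 libraries, on a log axis, for each of the 44 genes, 1 point per gene, coloured by role. The dashed line is the median of 8.96 for protein-coding genes at or above 1 CPM. CENPE, CENPN, NUSAP1, CDC25C and CENPI lie to its left, and CDC20, TPX2 and TOP2A lie farthest to the right.

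The checkpoint and anaphase genes ran from 14.7 to 185 CPM per kilobase, with a median of 35.0 over 9 genes. CDC20, both the target of the checkpoint and the activator of the anaphase-promoting complex, had the highest level of the 44 genes, 185 CPM per kilobase from 329 CPM (GRCh38 chr1:43358981-43363203, plus strand). BUB1, the kinase that recruits other checkpoint proteins to the kinetochore, followed in this group with 88.1 CPM per kilobase, and PTTG1 (securin, the inhibitor of separase) with 81.6. BUB1B (the pseudokinase BUBR1) stood at 36.9, UBE2C (the ubiquitin-conjugating enzyme of the anaphase-promoting complex) at 35.0, BUB3 at 25.9 and TTK (the kinase MPS1) at 20.65 CPM per kilobase. The lowest were MAD2L1 (MAD2) with 17.7 and ESPL1 (separase) with 14.7.

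The 4 proteins of the mitotic checkpoint complex, BUBR1, BUB3, MAD2 and CDC20, thus came from transcripts that differed by up to 10.5-fold per kilobase, CDC20 being the highest and MAD2L1 the lowest. That distance depended on the length used. BUB3 and MAD2L1 have long 3′ ends and short coding regions (984 and 615 bases), and per kilobase of coding sequence BUB3 stood at 203 and MAD2L1 at 150.1, near CDC20 at 219.8, with BUB1B at 43.0 now the lowest and a ratio of 5.11. Securin and separase lay 5.54-fold apart per kilobase, with securin above its enzyme under all 4 choices of length, by 4.05-fold to 9.40-fold. The 4.05-fold is that of the median transcript, which for ESPL1 is shorter than the coding sequence.

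The centromere and kinetochore genes had the lowest median of the groups, 25.2 CPM per kilobase over 12 genes, and ran from 1.76 to 34.4. The 4 subunits of the NDC80 complex, which binds microtubules as a rod of paired coiled coils, were close to each other, with SPC25 at 34.4, NDC80 at 28.9, SPC24 at 26.3 and NUF2 at 21.3 CPM per kilobase, a range of 1.62-fold. Per kilobase of coding sequence the range widened to 3.40-fold. CENPA, the histone variant that marks the centromere, had 28.7 CPM per kilobase and its chaperone HJURP 24.1. CENPF, a large protein of the outer kinetochore, stood at 27.3 and CENPE, the kinetochore motor, at 8.71, from 281.3 and 76.2 CPM spread over long transcripts.

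The members that belong to the constitutive centromere network, the layer between CENP-A and the outer kinetochore, were spread more widely than the NDC80 subunits. CENPM stood at 26.98 CPM per kilobase, CENPK at 17.3, CENPN at 7.38 and CENPI at 1.76, a range of 15.3-fold. CENPI was the lowest of the 44 genes per kilobase under all 4 choices of length. This gene, on chromosome X (GRCh38 chrX:101098188-101166126, plus strand), had a mean of 9.85 CPM. The range of this network was 8.36-fold with the median transcript length and 16.3-fold with the canonical transcript, wider than that of NDC80 under each choice. In CPM, without division by length, it was only 3.04-fold, against 1.47-fold for NDC80.

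**Figure D3:**
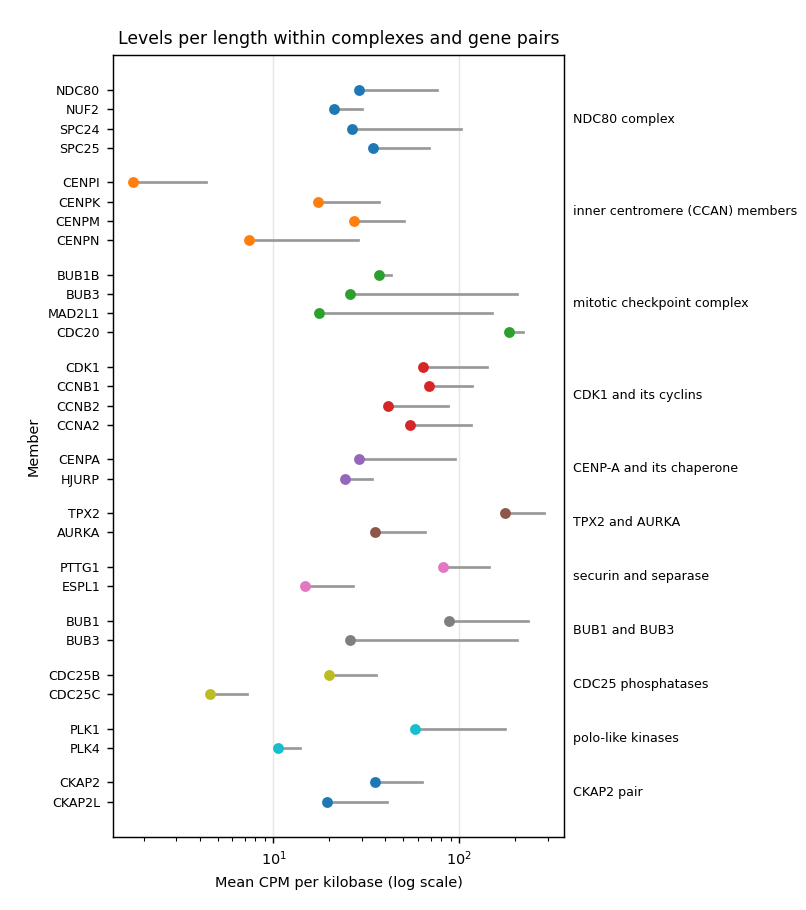
Mean CPM per kilobase on a log axis for members of 11 complexes or gene pairs. The point uses the longest transcript and the grey line spans 4 choices of length (longest, canonical and median transcript, and coding sequence). For some genes, among them PLK1, BUB1 and NDC80, the median transcript is shorter than the coding sequence. The NDC80 subunits and CDK1 with its cyclins lie close together, and the inner centromere members are spread over 15.3-fold (3.04-fold in CPM), with CENPI the lowest.

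The spindle and chromosome factors held 2 of the 3 highest genes. TPX2, which activates Aurora A on spindle microtubules, had 176.5 CPM per kilobase from 636 CPM, 5.03-fold above AURKA. TOP2A (topoisomerase II alpha, which untangles sister chromatids) had 133 CPM per kilobase and took the most reads of the 44, 756 CPM (GRCh38 chr17:40388525-40417896, minus strand). The order of the highest genes changed with the length used, TPX2 leading per kilobase of coding sequence and TOP2A with the median transcript. For TOP2A that median length is shorter than the coding sequence, giving 1306 against 164.7 CPM per kilobase. CKAP5, a microtubule polymerase, stood at 47.4 CPM per kilobase, HMMR at 36.3, CKAP2 at 35.4 and DLGAP5 at 31.4, all of them spindle microtubule proteins. MKI67, whose product Ki-67 coats mitotic chromosomes and serves as the usual marker of cycling cells, had 33.7 CPM per kilobase. Its 429 CPM were spread over a transcript of 12716 bases, the longest of the group. CKAP2L stood at 19.3, ASPM (a spindle pole protein) at 15.5 and NUSAP1, which bundles microtubules, at 6.78 CPM per kilobase.

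How reads could be shared with other genes was checked in GENCODE 44, among genes that the table lists. None of the 44 genes had more than 10% of its exonic bases under exons of another listed gene on the same strand. FOXM1 was the only one with more than 10% under exons on the other strand, 15.9%, from ITFG2. Whether the counting used strand is not given in the sources used here. NUSAP1 overlapped OIP5 on the other strand over 9.8% of its exonic bases and OIP5-AS1 on its own strand over 5.4%. Pseudogenes and gene copies with an entry were listed with few reads, while others, such as BUB1P1 and MAD2L1P1, had no entry. How reads that map to several places were handled is not given in the sources used here. These values therefore do not show whether parent genes lost reads. The copy of PTTG1 with the most, PTTG3P, had 1.32 CPM, which is 1.52% of the PTTG1 value, and CDC20P1 had 1.52 CPM, 0.461% of CDC20. All other listed copies of members stayed under 1% of their parent gene.

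The partners of these genes were read from 8 lists of 80 further mitotic genes, all of which had an entry. The chromosomal passenger complex, which corrects faulty attachments, had a median of 55.1 CPM per kilobase over 4 genes, from 23.7 (INCENP) to 63.8 (BIRC5, survivin). Other mitotic entry genes had a median of 30.1 over 10 genes, from BORA at 5.70 to CKS1B at 146.8. Cohesin, condensin and shugoshin genes had a median of 24.6 over 16 genes, from SGO1 at 7.75 to the cohesin subunit RAD21 at 144.9. The anaphase-promoting complex and its partners had a median of 23.1 over 17 genes, from ANAPC10 at 2.70 to UBE2S at 119.2.

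The remaining lists lay lower. Other checkpoint genes had a median of 18.3 CPM per kilobase over 7 genes, and TRIP13, the enzyme that opens MAD2, was the highest at 31.15. The KNL1 and MIS12 complexes, which join NDC80 to the centromere, had a median of 15.2 over 6 genes, from NSL1 at 4.23 to ZWINT at 55.1. The 11 other subunits of the inner centromere network had a median of 9.55, from CENPP at 0.806 to CENPX at 62.4. That median was near the 8.96 of coding genes at or above 1 CPM. Such a width was not particular to this layer, since the other checkpoint genes ran from 0.172 (MAD1L1) to 31.15. Only the longest transcript was used for these ranges. In CPM the 11 inner centromere subunits ran from 2.22 (CENPS) to 58.8 (CENPU). The MuvB core with B-MYB and NF-Y, regulators known to bind promoters of cell cycle genes, had a median of 9.02 over 9 genes, with MYBL2 (B-MYB) the highest at 65.1.

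MAD1L1, which encodes the MAD1 scaffold that holds MAD2 at the kinetochore, was listed at only 0.515 CPM, while its partner MAD2L1 had 92.3 CPM. LIN37, a subunit of the MuvB core, had 0.910 CPM, the next lowest of the 80. In GENCODE 44 neither had exonic bases under another listed gene. The cause of these low values was not tested.

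Mitotic genes are known to share promoter elements. The cell cycle genes homology region (CHR), with the letters TTTGAA, is bound by the MuvB core, and the CCAAT box is bound by NF-Y. RefSeq promoter windows on GRCh38.p14, from 250 bases before to 50 after a transcript start, were found for 36 of the 44 genes, in 46 windows, since CDC25B, CDC25C, PLK4, PTTG1 and CDK1 have several starts. AURKA, BUB3, CENPM, FOXM1, PBK, TPX2, TTK and UBE2C had no window in the table used. A gene was counted when any of its windows held the letters on either strand, and the same was done for all 27305 genes with a window.

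TTTGAA was found in 24 of 36 mitotic genes (66.7%), against 18.2% of all genes and 13.6% of 9572 genes with a mean of at least 1 CPM. In 17 of the 36 (47.2%) it stood on the strand of the gene within 50 bases of the start, where 3.1% of all genes had it. This narrower window was chosen after the positions had been seen. The CCAAT box was found in 29 of 36 genes (80.6%), against 39.7% of all genes and 43.6% of genes with at least 1 CPM. At least 2 such boxes in the same window were found in 22 (61.1%), against 12.9% and 16.6%. Both elements stood together in the same window in 20 of the 36 (55.6%) and in 7.3% of all genes. PLK4 had them in different windows and was not counted here. Of the 80 further mitotic genes, 70 had a window, and of these 42.9% held TTTGAA and 58.6% a CCAAT box, between the 36 genes and the background. A TATA box (TATAAA on the gene's strand, 40 to 15 bases before the start) was found only in NUSAP1 among the 36, 2.8%, against 2.9% of all genes. A match of letters is not a bound site.

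**Figure D4:**
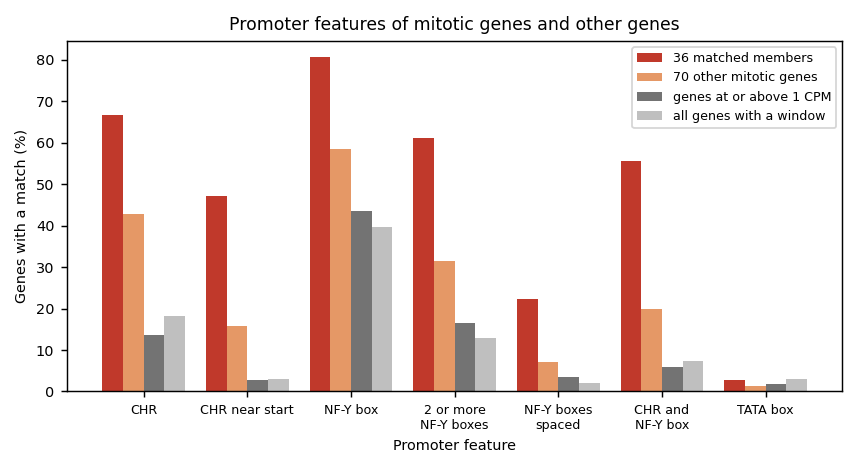
Bars from 0 give the percentage of genes with each promoter feature, for the 36 matched mitotic genes, 70 further mitotic genes, 9572 genes at or above 1 CPM and all 27305 genes with a window. The NF-Y box is the CCAAT box, and spaced boxes lie 27 to 37 bases apart on 1 strand. The bar for CHR and NF-Y box needs both in the same window. The mitotic genes stand highest for every feature except the TATA box, at 2.8% against 2.9% of all genes.

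The 24 genes held 37 matches of TTTGAA, of which 27 were on the gene's strand and 20 of these within 50 bases of a start (windows of 1 gene that overlap can repeat a site). The others lay farther out or on the other strand, as in TOP2A (194 and 151 bases before the start), ASPM (113 before) and HJURP (111 before). For 10 genes a match near the start is printed, chosen for that place, to show the letters round it. Each line gives 30 bases of the gene's strand, 5′ to 3′, from RefSeq on GRCh38.p14, with TTTGAA in capitals.
CDK1 (chr10:60778453-60778482, plus strand): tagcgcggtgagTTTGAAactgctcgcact
CCNB2 (chr15:59105105-59105134, plus strand): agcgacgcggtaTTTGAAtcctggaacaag
PLK1 (chr16:23678848-23678877, plus strand): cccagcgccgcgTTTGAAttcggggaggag
CDC25C (chr5:138331817-138331846, minus strand): gctggcggaaggTTTGAAtggtcaacgcct
BUB1B (chr15:40161034-40161063, plus strand): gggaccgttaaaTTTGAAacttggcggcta
ESPL1 (chr12:53268256-53268285, plus strand): cagccgcggataTTTGAAaggagggtctgg
CENPA (chr2:26786026-26786055, plus strand): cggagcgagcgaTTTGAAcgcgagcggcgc
NUF2 (chr1:163321958-163321987, plus strand): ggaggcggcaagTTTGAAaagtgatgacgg
HMMR (chr5:163460598-163460627, plus strand): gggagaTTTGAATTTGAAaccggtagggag
MKI67 (chr10:128126435-128126464, minus strand): tcttcgttttcgTTTGAAttgggcgggcgc

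Among these matches, the element began 29 bases before the start in CCNB2, PLK1 and MKI67, 30 in CDC25C and 31 in ESPL1. MKI67 had another copy 47 bases before the start. CDK1 had it 13 bases before the start, CENPA 18 and BUB1B 23, and NUF2 had it 16 bases after. HMMR held 2 copies in a row, 28 and 22 bases before the start. CDK1, CDC25C and NUF2 also had GCGG ending 4 bases before TTTGAA, the arrangement of a cell cycle-dependent element followed by a CHR. It was found in CENPF and DLGAP5 as well, 5 of 36 genes (13.9%) against 0.1% of all genes. This arrangement was not among the planned counts.

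**Figure D5:**
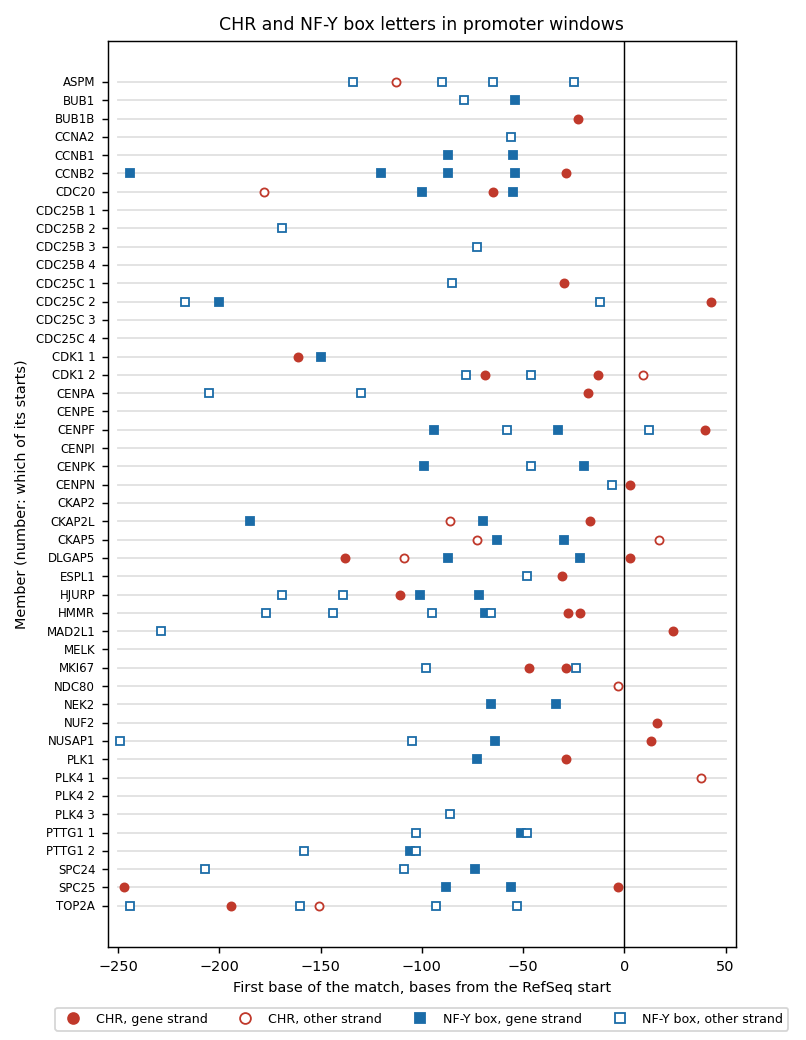
Each row is 1 promoter window of a member (several rows for genes with several starts), and the axis gives bases from the RefSeq start. Red circles mark the CHR letters and blue squares the NF-Y (CCAAT) box, filled on the gene's strand and open on the other. Red filled circles gather round the start, and blue squares mostly lie 20 to 110 bases before it.

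The CCAAT boxes lay farther out than the CHR. Of 75 matches over the 46 windows, 52 began between 110 and 20 bases before the start (windows of 1 gene that overlap repeat a site). In 8 genes, CCNB1, CCNB2, CDK1, CKAP5, HJURP, HMMR, NEK2 and SPC25, boxes on the same strand began 27 to 37 bases apart. They are 22.2% of the 36, against 2.1% of all genes and 3.6% of genes with at least 1 CPM. Part of this distance follows from the number of boxes. Of genes with at least 2 boxes in a window, 8 of 22 mitotic genes had the spacing, and 585 of 3524 over all genes. The spacing was not among the planned counts. The spacing was 32 or 33 bases in CCNB1, CCNB2, CDK1, CKAP5, NEK2 and SPC25. HMMR had pairs 33 and 29 bases apart, and HJURP pairs 30 and 29 bases apart. The 130 bases before the start of 4 of these genes are printed to show the repeated boxes, with CCAAT (or ATTGG, the same box on the other strand) and TTTGAA in capitals. SPC25 has a TTTGAA that begins 3 bases before the start, so the printed stretch ends inside it and it is not in capitals.
CCNB2 (chr15:59105016-59105145, plus strand): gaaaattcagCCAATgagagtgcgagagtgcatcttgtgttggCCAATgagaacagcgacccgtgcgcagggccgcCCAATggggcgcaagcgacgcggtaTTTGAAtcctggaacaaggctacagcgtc
CCNB1 (chr5:69167020-69167149, plus strand): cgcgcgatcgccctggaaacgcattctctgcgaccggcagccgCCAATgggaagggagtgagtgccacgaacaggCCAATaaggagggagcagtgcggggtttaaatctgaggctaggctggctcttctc
CDK1 (chr10:60778348-60778477, plus strand): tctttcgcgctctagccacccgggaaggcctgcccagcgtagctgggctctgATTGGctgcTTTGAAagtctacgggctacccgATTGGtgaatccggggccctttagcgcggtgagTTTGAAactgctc
SPC25 (chr2:168890431-168890560, minus strand): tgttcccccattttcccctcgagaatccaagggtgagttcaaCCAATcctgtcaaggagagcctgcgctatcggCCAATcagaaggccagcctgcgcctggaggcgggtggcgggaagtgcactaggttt

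In these 130 bases CCNB2 shows 3 boxes and then a CHR, and CDK1 has boxes and CHR letters in turn. CCNB1 has the boxes but no TTTGAA, holding the related letters TTTAAA instead. The 24 genes with TTTGAA had a median log2 CPM of 6.57 (3.26 to 9.56) and the 12 without it 6.10 (3.30 to 8.37), so the ranges overlap over most of their width. These values were not compared by a test. CENPE, CENPI, CKAP2 and MELK had neither element in their windows. The windows of the mitotic genes had a median GC content of 61.0%, between that of all windows (58.7%) and that of genes with at least 1 CPM (64.7%).

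The genes were scattered over 20 chromosomes. Chromosomes 1, 2 and 5 held 5 each, among them CDC20, CENPF, ASPM, NEK2 and NUF2 on chromosome 1. Within the 44 genes longer transcripts took more reads (Spearman's rho of transcript length with CPM 0.45, n = 44 genes) but did not have more CPM per kilobase (rho -0.27). Over the 11493 coding genes these values were 0.07 and -0.32. Genes share libraries and are not independent, so no p is given.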

How the data were processed

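Per the labels, poly(A) libraries of shCtrl and shTMIGD2 HEL cells (3 each) were sequenced. The authors selected hairpin-carrying cells with puromycin, aligned reads to hg38 with STAR (2.6.1b) and counted fragments per refSeq gene with HTSeq (0.6.1). Their methods name DESeq2 (3.11), while the columns deposited are those that edgeR writes, and the edgeR settings are not given in the sources used here. The deposited log2 CPM is the authors' mean over the libraries, with a lowest value of -3.76. The fold change, F, p-value and FDR columns hold the authors' comparison and were not used. No column gives single libraries, so the planned group test was not made.

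Mean log2 CPM was turned into CPM and divided by transcript length (GENCODE 44), an annotation other than the one counted. Of 31999 gene names, 22987 matched by symbol and 23568 with RefSeq synonyms. 24 names had become dates. Planned RefSeq transcript lengths were replaced by GENCODE's. Promoter windows come from RefSeq (GRCh38.p14). Values were computed in Python 3.11.15 with pandas 2.3.3. Only the percentile ranks and the search for TTTGAA were checked on data with known answers. Named genes are all 44 members and the highest and lowest of each list. Other genes named were chosen after their values were seen. Members and lists were chosen with earlier results of these data known.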

Additional observations from a re-analysis of the deposited data

How the results depend on the processing

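Per kilobase the median of the 44 genes was 28.0 in place of 86.9 CPM, a change of unit. Their median position of percentile 91.4 among all genes was 83.9 among protein-coding genes, 80.4 among the 14000 genes not below 1 CPM, where fewer low genes are compared, and 78.7 per kilobase among coding genes at or above 1 CPM (chosen after seeing the data), where both the scale and the genes compared change. On the gene's strand alone 19 genes had a CCAAT box, against 29 on both strands, since fewer letters were searched. The 42 genes at or above 10 CPM stayed at 42 with the lowest value subtracted and with a minimum of 20 CPM. Of the 10 highest genes per kilobase, 7 were shared with coding length, 8 with the median transcript and 9 with the canonical transcript (chosen after seeing the data). The median transcript was shorter than the coding sequence in some genes, among them TOP2A, CKAP5, PLK1, BUB1 and TTK. The count of 24 genes with TTTGAA ran from 17 to 28 over the 4 other settings.

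No paired analysis was possible because only a mean over the 6 libraries was used, and leaving out libraries was not possible for the same reason. The planned KEN box count was not run, since no protein sequences were used here. With 1 mean per gene, neighbours in the order of levels cannot be told apart by any error, and the depth behind each mean is unknown.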
